A study of Drosophila melanogaster with 6 samples.

Results

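A group of 10 genes linked to the hindgut, the posterior part of the fly gut, was followed across 6 RNA-seq libraries of Drosophila melanogaster. They are byn, otp, FoxL1, drm, bowl, hh, NKCC, Irk2, Lgr1 and CG6409, found by their symbols in the Ensembl annotation, and all 10 were among the 17411 genes counted. The group was selected on the levels seen in control library A, so the excess of that library is described here and not tested. In 3 libraries, with the genotype Mex-Gal4>9G8RNAi, an RNAi construct targets the splicing factor gene 9G8 (x16). In the 3 control libraries, with the genotype Mex-Gal4>GFPdsRNA, the double-stranded RNA is directed at GFP. Mex-Gal4, which both groups carry, is a driver used for enterocytes, which absorb nutrients in the midgut. Libraries are lettered A, B and D within each group. Age, sex and the number of flies per library are not given in the labels, and nothing there says that libraries came from separate cohorts, so p-values measure the spread between these libraries, which may be technical. The tissue label is intestines for 9G8-RNAi but fat bodies for the controls, and the design text speaks of a yolk-Gal4 driver.

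The hindgut arises from ectoderm, is lined with cuticle and takes up ions and water from the gut contents before excretion. In the embryo it is specified by byn, the fly Brachyury gene of the T-box family, together with the forkhead gene fkh, and it is patterned by the zinc finger genes drm and bowl of the odd-skipped family and by secreted signals such as hh (hedgehog). Salt balance in insects is also under the control of peptide hormones whose receptors sit on the hindgut and the Malpighian tubules, the renal organs that open at the junction of midgut and hindgut.

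Control A stood apart from the other 5 libraries in many genes, and each value below is therefore given by library. Total counts were between 26216430 (control A) and 66562756 per library. Levels are in CPM, the count of a gene divided by the total counts of its library and scaled alike in all, unless another scale is named. Enterocyte genes were abundant in all 6 libraries. A list of 16 such genes summed to 90589 to 171771 CPM over the 9G8-RNAi libraries and to 65223 (control A) to 206504 CPM over the controls, while 13 fat body genes summed to 139.3 to 509.0 CPM in 9G8-RNAi and to 119.1 to 636.5 CPM (control A) in the controls. The label of fat bodies is thus not matched by these levels. By total counts, 65.2% of the tested genes were higher in control A than in each of the other 5 libraries. This share depends on the scale. The 20 genes with most counts took 25.7% of all counts in control A and 35.5 to 53.8% in the others, which leaves more CPM to the remaining genes in control A. At least 2-fold above each of the others were 14.3% by total counts and 6.23% with TMM scaling. The muscle list of 20 genes summed to 7517 CPM in control A and to 747 to 1731 CPM in the others, with Mhc, the muscle myosin heavy chain, at 1418 CPM and 8.35 to 40.3 CPM. Of the 20 muscle genes 18 were highest in control A. Mlp60A, the gene of that list with the highest mean, was lowest there, at 327.5 CPM against 351.8 to 871.6 CPM. The target x16 measured 5.44, 9.76 and 7.69 CPM in 9G8-RNAi A, B and D, against 13.9, 7.92 and 12.7 CPM in control A, B and D. The groups overlapped (two-sided exact permutation test, p = 0.2; the smallest p that 3 libraries a group allow is 0.1), so lower x16 in the 9G8-RNAi libraries was not shown.

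The 10 genes together took 3712 CPM in control A and 33.5 to 168.6 CPM in the other 5 libraries, a 22.0-fold difference to the highest of those. In bulk tissue more cells of a type and more RNA per cell cannot be told apart. All 10 were highest in control A by total counts (7 with TMM scaling), but by very different amounts, and they formed 2 sets. At least 2-fold above the highest of the other 5 libraries were 7 (byn, otp, FoxL1, NKCC, Irk2, Lgr1 and CG6409), where 14.3% of the tested genes were. Of these, byn, otp, NKCC, Lgr1 and CG6409 were at least 10-fold above it, 5 of 10, where 2.00% of the tested genes were. Since these genes were chosen for that contrast, and otp and FoxL1 were too low to be among the tested genes, nothing is read from the shares. For drm, bowl and hh the excess was at most 1.38-fold, close to the median of 1.21-fold over all tested genes, so the description as high in one control does not hold for these 3.

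**Figure D1:**
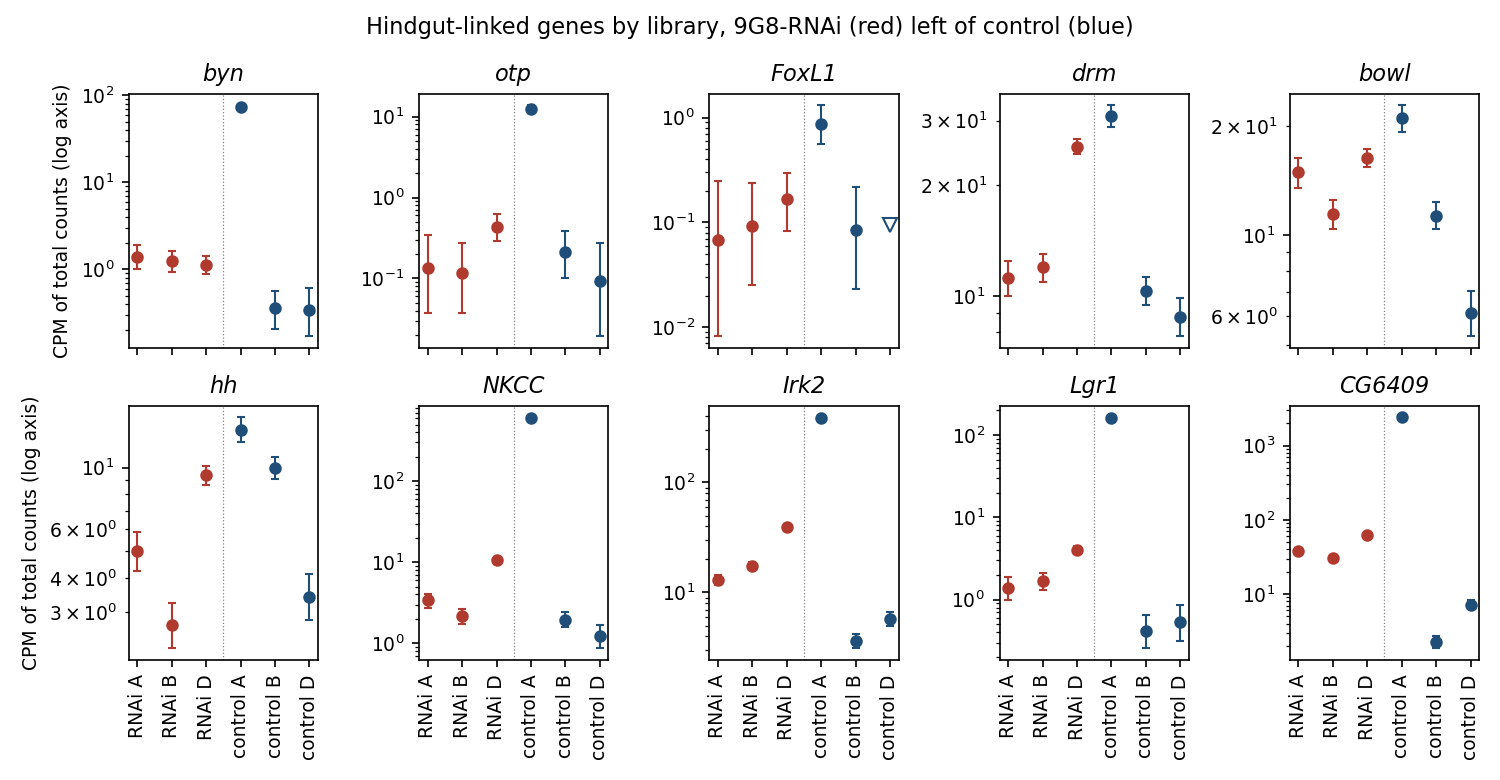
Level of each of the 10 genes by library, in CPM of total counts on log axes, with exact 95% binomial intervals that cover counting error only (3 9G8-RNAi libraries in red, 3 control libraries in blue, the open triangle marking the floor of 3 counts for a gene at 0). Control A is the highest point in all 10 panels, far above the rest for byn, otp, NKCC, Irk2, Lgr1 and CG6409 and close to 9G8-RNAi D or control B for drm, bowl and hh.

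Transcription factors of the hindgut came first. The byn gene (FBgn0011723, 3L from 11927693 to 11935919, plus strand, BDGP6, with 2650 bases of exon) measured 1.39, 1.26 and 1.13 CPM in 9G8-RNAi A, B and D, against 74.1, 0.358 and 0.345 CPM in control A, B and D. Control A thus held 1943 reads of byn, and its level was 53.2 times that of the next library, with a counting interval of 39.1 to 74.3. Among the other 5 libraries the 3 of 9G8-RNAi lay within a narrow range, all above control B and D.

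The otp gene encodes a homeodomain factor that is expressed in the embryonic hindgut (FBgn0015524, 2R from 20883625 to 20903414, minus strand). It measured 0.136, 0.116 and 0.436 CPM in 9G8-RNAi A, B and D, against 12.5, 0.211 and 0.0940 CPM in control A, B and D. Outside control A it rested on 3 to 29 reads per library, and the order of those 5 libraries is not firm at this depth. An antisense RNA gene shares 9.53% of its exon bases, so part of its reads may have been assigned elsewhere.

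FoxL1, a forkhead factor (FBgn0004895, 3L from 4018878 to 4021279, plus strand), was close to the limit of detection. It had 2, 4 and 11 reads in 9G8-RNAi A, B and D, against 23, 4 and 0 reads in control A, B and D. In control A this is 0.877 CPM, with an exact 95% interval of 0.556 to 1.32 CPM, and 5.31 times the next library, with a counting interval of 2.49 to 12.1. The 0 in control D has an exact 95% upper limit of 0.116 CPM, and the floor of 3 counts is 0.0940 CPM in that library.

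The odd-skipped family members had another pattern. In the embryo the small zinc finger protein of drm relieves bowl of repression by lines. The drm gene (FBgn0024244, 2L from 3539247 to 3548423, plus strand) measured 11.2, 11.9 and 25.5 CPM in 9G8-RNAi A, B and D, against 30.9, 10.3 and 8.78 CPM in control A, B and D. For bowl (FBgn0004893, 2L from 3771700 to 3784121, plus strand) the levels were 14.9, 11.4 and 16.4 CPM in 9G8-RNAi A, B and D, against 21.1, 11.3 and 6.11 CPM in control A, B and D. Both were present at several CPM in every library, and in both 9G8-RNAi D came next after control A.

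The secreted ligand gene hh (FBgn0004644, 3R from 23128169 to 23141906, minus strand) measured 5.00, 2.70 and 9.41 CPM in 9G8-RNAi A, B and D, against 13.7, 9.98 and 3.42 CPM in control A, B and D. It is the one gene of the 10 for which control B was the second highest library. Control A was 1.38-fold above control B, with a counting interval of 1.20 to 1.58. For drm and bowl the excess over 9G8-RNAi D was 1.21-fold (1.11 to 1.32) and 1.29-fold (1.16 to 1.43). These 3 ratios depended on the scaling. With TMM scaling, which sets the bulk of genes level between libraries, control A was below the highest other library, at 0.842 for drm, 0.718 for bowl and 0.908 for hh.

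The transport and receptor genes came next. NKCC encodes a sodium, potassium and chloride cotransporter (FBgn0051547, 3R from 5489505 to 5502702, minus strand). It measured 3.37, 2.14 and 10.8 CPM in 9G8-RNAi A, B and D, against 606.7, 1.96 and 1.22 CPM in control A, B and D. Its ratio of 56.3 between control A and the next library was the highest of the 10 and ranked 9 of 9285 tested genes.

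Irk2 encodes an inwardly rectifying potassium channel (FBgn0039081, 3R from 23513617 to 23519445, minus strand). Its levels were 13.0, 17.5 and 39.2 CPM in 9G8-RNAi A, B and D, against 384.9, 3.64 and 5.77 CPM in control A, B and D. Control A was 9.83-fold above 9G8-RNAi D, and the 3 9G8-RNAi libraries were in turn all above control B and D.

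Lgr1 is the receptor for the glycoprotein hormone of the subunits Gpa2 and Gpb5 (FBgn0016650, 3R from 17725777 to 17733207, plus strand). It measured 1.39, 1.67 and 4.03 CPM in 9G8-RNAi A, B and D, against 160.7, 0.421 and 0.533 CPM in control A, B and D. Its ligand genes, named here after their values were seen, were at or near 0, with no count of Gpa2 in any library and at most 0.343 CPM of Gpb5.

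CG6409, a protein-coding gene without a name of its own (FBgn0036106, 3L from 10880699 to 10882386, minus strand), was the most abundant of the 10 in control A. Its levels were 37.8, 30.9 and 61.7 CPM in 9G8-RNAi A, B and D, against 2407, 2.27 and 7.21 CPM in control A, B and D. With 63100 reads in control A, its ratio of 39.0 to the next library had a counting interval of 37.8 to 40.2. The exons of all 10 genes except otp overlapped those of no other counted gene.

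**Figure D2:**
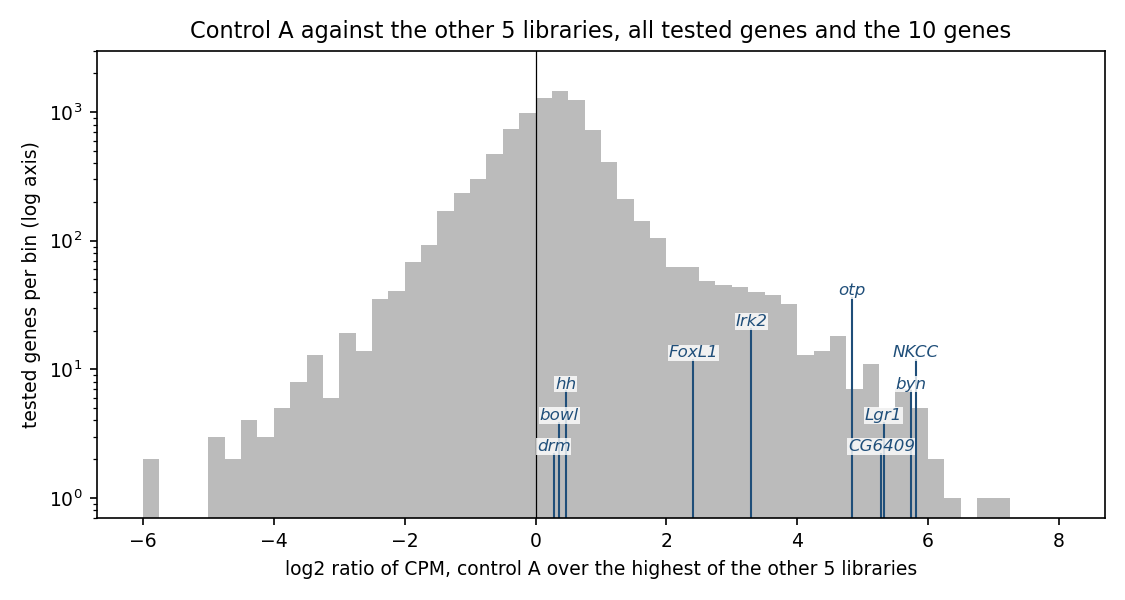
Distribution over 9285 tested genes of the log2 ratio of CPM between control A and the highest of the other 5 libraries (x axis, bins of equal width, genes per bin on a log axis), with a line at the value of each of the 10 genes. The lines of drm, bowl and hh stand near the peak of the distribution and those of otp, CG6409, Lgr1, byn and NKCC in its far right tail; otp and FoxL1 are drawn but were too low to be among the tested genes.

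Levels can be compared between genes as TPM, counts per base of exon, scaled alike in all libraries. In control A the order in TPM was CG6409 at 1756, Irk2 at 173.6 and NKCC at 172.4, then Lgr1 at 56.2, byn at 31.5, drm at 12.3, hh at 6.53, bowl at 5.54, otp at 4.17 and FoxL1 at 0.699. Irk2 and NKCC differed there by less than 1%. In control B the order was another one, with hh at 3.96, drm at 3.44 and bowl at 2.49 TPM above CG6409 at 1.38 and Irk2 at 1.37 TPM. Thus the 3 patterning genes drm, bowl and hh lay below CG6409, Irk2, NKCC and Lgr1 in control A and above them in control B.

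The 10 genes did not keep a fixed proportion to each other. The TPM ratio of NKCC to Irk2 was 0.993 in control A and 0.0770 to 0.339 in the other 5 libraries. That of Lgr1 to Irk2 was 0.324 in control A and 0.0716 to 0.0896 in the others, so outside control A it was nearly the same in both groups. CG6409 to Irk2 measured 10.1 in control A and 1.01 to 4.72 elsewhere. Relative to Irk2, all 3 were therefore higher in control A than in any other library.

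Scaling moved the size of the excess but not the split of the 10 genes into 7 and 3. In TMM-scaled CPM control A was 27.0-fold above the next library for byn, 39.1-fold for NKCC, 6.83-fold for Irk2, 27.7-fold for Lgr1 and 27.1-fold for CG6409. On that scale 6.23% of tested genes were at least 2-fold higher in control A. With the muscle list taken out of the library sizes the ratio was 53.5 for byn and 56.7 for NKCC. That list took only 7517 CPM in control A, so leaving it out could hardly move any ratio. It does not show what part muscle has in these levels. The 10 genes have 1414 to 4280 bases of exon, and among the 4619 tested genes in that range 14.9% were at least 2-fold higher in control A.

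**Figure D3:**
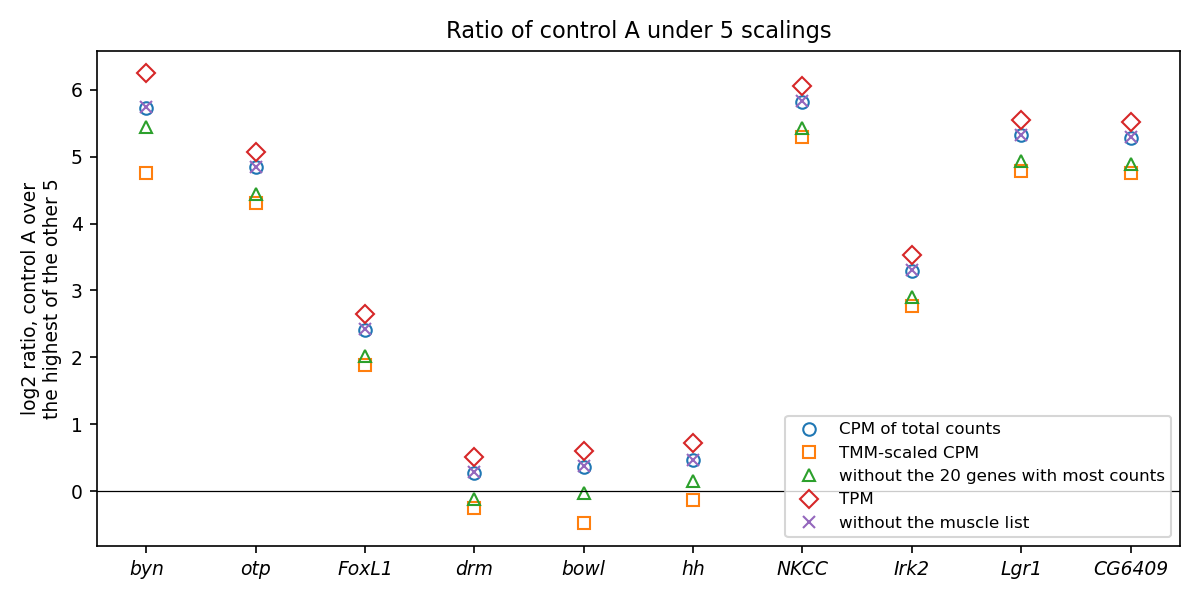
The log2 ratio of control A to the highest of the other 5 libraries for each of the 10 genes under 5 scalings (CPM of total counts, TMM-scaled CPM, CPM without the 20 genes with most counts, TPM, and CPM without the muscle list in the library size). For 7 genes all 5 points lie above 1.88, and for drm, bowl and hh they lie on both sides of 0.

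The comparison the study was designed for sets 9G8-RNAi against control. Of the 10 genes, 8 passed the filter on low counts (byn, drm, bowl, hh, NKCC, Irk2, Lgr1 and CG6409), and otp and FoxL1 did not. None of the 8 passed the edgeR quasi-likelihood test over all genes (0 also at an unadjusted p under 0.05, and 0 in DESeq2), where 0.118% of 9285 tested genes passed. DESeq2 gave neither a p nor an adjusted p for 6 of the 10 (byn, otp, NKCC, Irk2, Lgr1 and CG6409), so these could not pass there. No gene of the 10 had groups that did not overlap, where 4.08% of tested genes had. The choice of genes high in control A alone largely fixed this outcome, so nothing is read from it. The mean of NKCC was 5.43 ± 4.67 CPM over the 9G8-RNAi libraries, against 203.3 ± 349.4 CPM over the controls (SD, n = 3 each). The mean of CG6409 was 43.5 ± 16.2 CPM over the 9G8-RNAi libraries, against 805.5 ± 1387 CPM over the controls. The control SD exceeded the control mean in both.

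The log2 fold change of byn, 9G8-RNAi minus control on the TMM scale, was -3.48 ± 1.78 (SE), that of NKCC -4.53 ± 2.11 and that of Lgr1 -3.77 ± 1.94. For CG6409 it was -3.44 ± 2.07 and for Irk2 -1.80 ± 1.45. The patterning genes had smaller values, 0.24 ± 0.35 for drm, 0.47 ± 0.27 for bowl and -0.40 ± 0.39 for hh. All 8 had an edgeR adjusted p of 0.92 (Benjamini-Hochberg), and the median over all tested genes was -0.07.

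Without control A the picture turned for byn, NKCC, Irk2, Lgr1 and CG6409. In all of byn, drm, bowl, NKCC, Irk2, Lgr1 and CG6409 the 3 9G8-RNAi libraries were above both control B and control D in CPM of total counts, 7 of 10, where 16.9% of tested genes were. On the TMM scale it was also 7 of 10, with FoxL1 in and drm out, where 13.8% of tested genes were. The 9G8-RNAi mean was 9.18 times the mean of control B and D for CG6409, 4.96 times for Lgr1, 4.93 times for Irk2, 3.58 times for byn and 3.41 times for NKCC. For hh it was 0.851 times. In none of the 10 were all 3 9G8-RNAi libraries below control B and D, where 2.23% of tested genes were. The 10 genes were chosen with earlier results of these libraries known, control B and D included, so nothing is read from these shares.

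In the edgeR fit without control A the log2 fold change, TMM-scaled, was 2.67 ± 0.71 (SE) for CG6409, 1.97 ± 0.54 for Lgr1, 1.85 ± 0.56 for Irk2, 1.65 ± 0.52 for byn and 1.46 ± 0.53 for NKCC. Those of drm (0.45 ± 0.37), bowl (0.56 ± 0.30) and hh (-0.38 ± 0.40) were close to their values with all 6 libraries. Of the 8, these first 5 had an unadjusted edgeR p under 0.05 (0.0055 to 0.025), all higher in 9G8-RNAi, where 4.25% of 9564 tested genes had this in that direction and 6.62% in either. None passed the edgeR test over all genes, with adjusted p of 0.40 to 0.65 for these 5, where 0.115% of genes passed. Since the genes were chosen with earlier results of these libraries known, nothing is read from the shares. Without control B in turn, the unadjusted edgeR p was under 0.05 for 5 of 9 tested genes of the 10, and for 460 of all 9307 tested genes. Among these 5 CG6409 had a log2 fold change of -3.95, so these values turn on which control is left out. Without control A and with total counts in place of TMM, a fit added after seeing the data, only CG6409 of the 10 passed (log2 fold change 3.20 ± 0.65, edgeR adjusted p 0.040), where 0.303% of genes passed. The median over all genes was 0.14 in that fit, and over all alternatives the edgeR adjusted p of CG6409 ran from 0.040 to 1.00.

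The lists of other cell types lay on both sides of 0 in the same fit without control A, in which 47.0% of all tested genes had a log2 fold change above 0 and the median was -0.03. Above 0 were 7 of 7 tested genes of the haemocyte list (median 0.37), 12 of 15 of the Malpighian tubule list (0.79), 6 of 8 of the fat body list (1.15), 14 of 20 of the muscle list (0.31) and 3 of 5 of the trachea list (0.21). It was 4 of 9 of the enteroendocrine list (-0.10), 5 of 16 of the enterocyte list (-0.24), 1 of 10 of the neuron list (-0.40) and 0 of 4 of the progenitor list (-0.23). The summed tubule list measured 216, 341 and 452 CPM in 9G8-RNAi A, B and D, against 307 and 165 CPM in control B and D. What part the amount of these tissues has in the levels of the 10 genes was not tested. 9G8-RNAi D was the highest of the other 5 libraries for 8 of the 10 genes, and control D the lowest for 6.

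**Figure D4:**
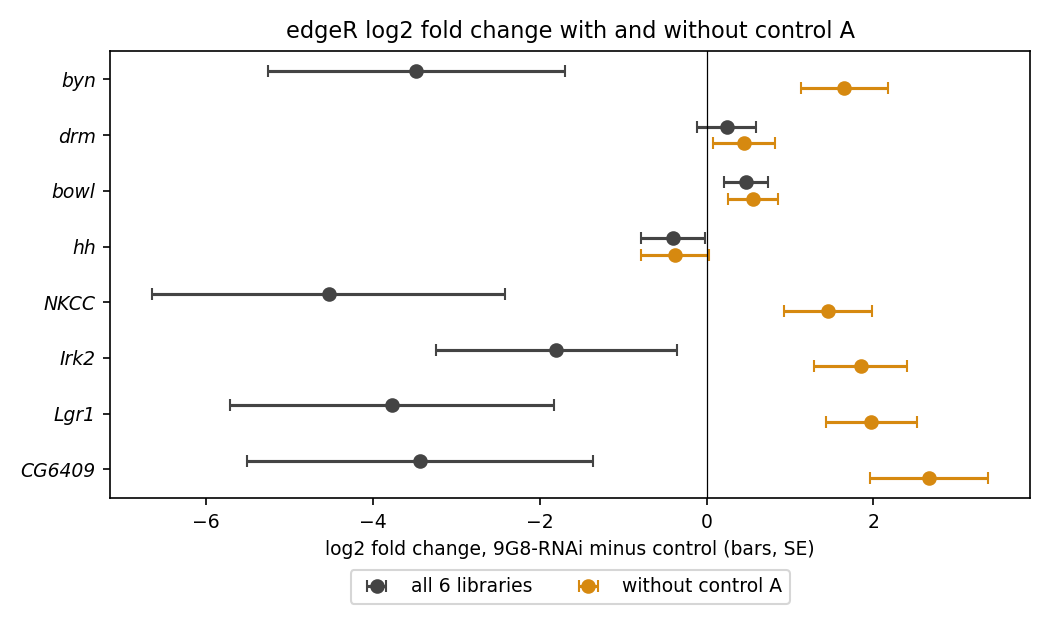
The edgeR log2 fold change of the 8 tested genes, 9G8-RNAi minus control on the TMM scale, with SE, with all 6 libraries (grey) and without control A (orange). For byn, NKCC, Irk2, Lgr1 and CG6409 the values change sign, CG6409 being at 2.67 without control A against -3.44 with all 6 libraries, and for drm, bowl and hh they stay close together.

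The remaining genes of the pathways were read from lists, and none of their members passed the edgeR test over all genes with all 6 libraries or without control A. In the list of 17 other hindgut development genes 3 were at least 2-fold higher in control A than in any other library, also with TMM scaling. Over all tested genes 14.3% were by total counts and 6.23% with TMM scaling, so the count by total counts is near that share. Only 11 of the 17 were among the tested genes that these shares cover. Among its 4 most abundant members fkh, the partner of byn in the embryo, measured 127.2 CPM in control A and 3.92 to 18.1 CPM in the others, a ratio of 7.02 to the next library and of 3.92 with TMM scaling. Of the rest, cad, odd and raw measured 36.6, 42.5 and 38.6 CPM in control A and up to 43.2, 49.7 and 34.1 CPM in the others, and raw was not highest in control A with TMM scaling (ratio 0.669). Of this list 7 members stayed under 1 CPM in every library.

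Hedgehog pathway genes, 17 with hh, summed to 269.7 CPM in control A and 52.1 to 141.7 CPM in the other 5 libraries, and 6 were at least 2-fold higher in control A, where 14.3% of tested genes were. With TMM scaling it was 2, where 6.23% of tested genes were. The most abundant was dally, a cell surface proteoglycan that binds secreted ligands, at 121.6 CPM in control A and 13.5 to 55.1 CPM in the others (ratio 2.21, and 1.46 with TMM scaling). In the edgeR fit with all 6 libraries 2 of 17 had a log2 fold change above 0, with a median of -0.41, beside 4109 of all 9285 tested genes and a median of -0.07. The odd-skipped relatives odd and sob were both highest in control B, at 49.7 and 5.43 CPM, not in control A.

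Of the relatives of NKCC and Irk2 in these lists none was at least 2-fold higher in control A. Irk1 and Irk3, the other inward rectifier genes, measured 110.0 and 24.5 CPM in control A, with up to 146.3 and 67.8 CPM in the others. Among cation-chloride cotransporters and their kinases kcc, a potassium and chloride cotransporter, had 83.2 CPM in control A and 29.7 to 154.0 CPM in the others. The kinase gene Wnk and its pathway member Mo25 had ratios of 1.45 and 1.55 between control A and the next library, but of 0.959 and 1.04 with TMM scaling. Of 28 genes of salt and water transport 24 were among the tested genes. Of the 28, 8 were at least 2-fold higher in control A (14.3% of all tested genes), against 3 with TMM scaling (6.23% of all tested genes). Atpalpha, the sodium pump, measured 1340 CPM in control A and 74.6 to 270.3 CPM in the others. Eglp2 and Eglp4, aquaglyceroporin genes, were lower in control A than in the highest other library, at 110.0 and 165.5 CPM against 309.9 and 264.7 CPM.

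Markers of other cell types moved in control A as well. Beside the muscle list, the list of chitin and cuticle genes summed to 504.1 CPM in control A and 33.8 to 68.4 CPM in the others. Of its 17 genes 8 were at least 2-fold higher (14.3% of all tested genes) and 5 with TMM scaling (6.23%). Only 10 of the 17 were among the tested genes that these shares cover, and 6 stayed under 1 CPM in every library. Most of the cuticle sum was dpy, which encodes a giant protein of the apical matrix, at 344.1 CPM in control A and at most 3.94 CPM in the others. The next most abundant, mmy, had a ratio of 1.44 between control A and the next library and of 0.953 with TMM scaling, and ect, the third, had 24.2 and 16.8. The trachea list summed to 139.8 CPM against 3.98 to 9.63 CPM, of which uif made 122.6 CPM (ratio 113.4, and 78.8 with TMM scaling). Of its 6 genes 2 were at least 2-fold higher (14.3% of all tested genes), and also 2 with TMM scaling (6.23%). Only 5 of the 6 were among the tested genes. Of the next 3 by level, Gasp, a chitin-binding protein gene of the tracheal lining, measured 8.96 CPM in control A and at most 5.06 CPM in the others. Its ratio was 1.77, and 1.20 with TMM scaling. The level of dysf was 3.97 CPM in control A and at most 0.706 CPM in the others (ratio 5.62, and 3.90 with TMM scaling). The level of serp was 1.37 CPM in control A and up to 1.17 CPM in the others (ratio 1.17, and 0.814 with TMM scaling). With TMM scaling the ratio of control A to the next library was 10.1 for the trachea list, 4.86 for the cuticle list and 2.21 for the muscle list. For the 10 genes it was 15.3, but they were chosen for their level in control A, so nothing is read from that order. On the same scale uif (78.8) and dpy (60.7) had ratios above that of NKCC (39.1), the highest of the 10. The summed tubule genes were 1.20-fold above the next library in CPM of total counts, at 543.2 CPM in control A and 164.6 to 452.2 CPM in the others, but below it with TMM scaling, at a ratio of 0.803. The fat body, enteroendocrine, neuronal, haemocyte and progenitor lists likewise had ratios of 1.22 to 1.41 by total counts and of 0.628 to 0.927 with TMM scaling. What part these tissues have in the levels of the 10 genes was not tested.

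**Figure D5:**
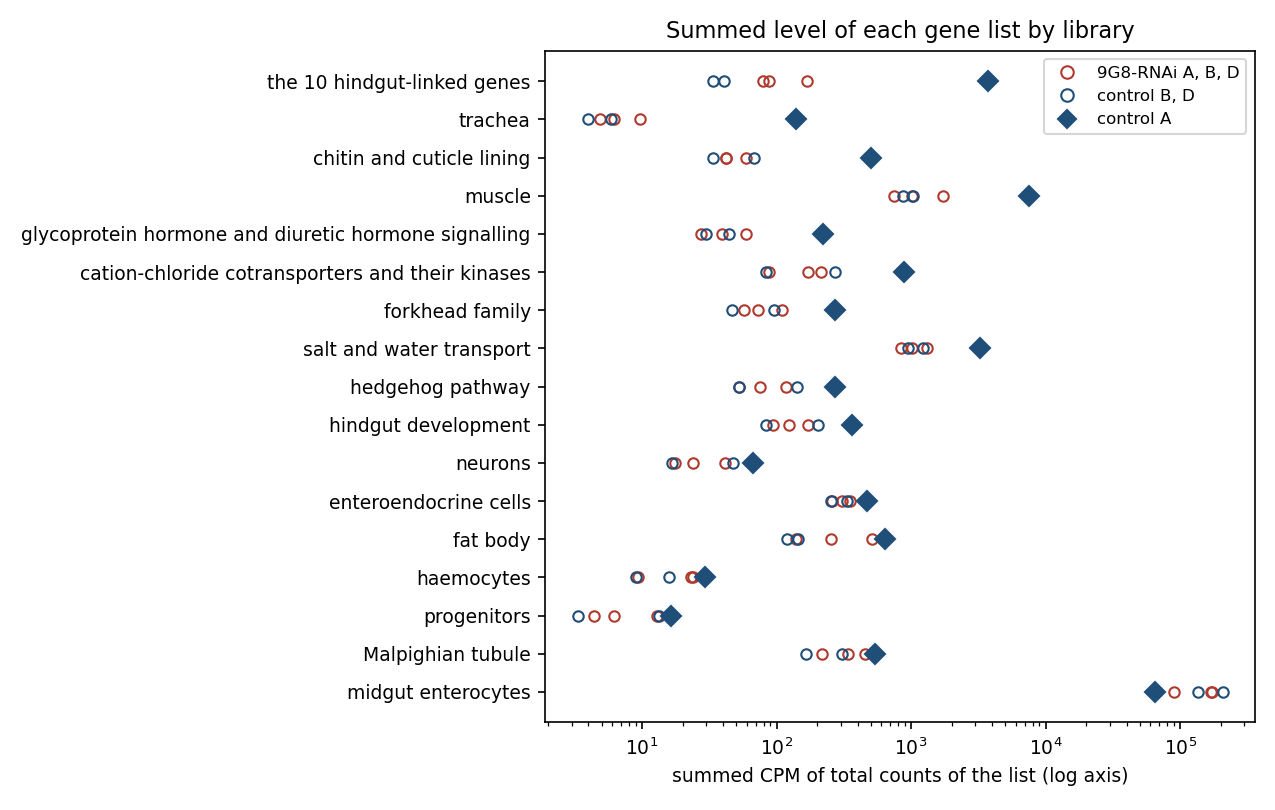
Summed CPM of total counts of each gene list (log axis) in the 3 9G8-RNAi libraries (open red circles), control B and D (open blue circles) and control A (filled diamond). The sum of the 10 genes was 22.0-fold higher in control A than in the next library. It was 4.34-fold for muscle and 1.20-fold for Malpighian tubule (0.803 with TMM scaling), and the enterocyte list is lowest in control A. Single genes weigh on these sums. CG6409 made 2407 of 3712 CPM in control A, and Mlp60A 871.6 of 1731 CPM of muscle in 9G8-RNAi A. The 4 most abundant muscle genes had ratios of 0.376 (Mlp60A), 35.2 (Mhc), 10.4 (Act57B) and 73.8 (sls). As the 10 genes were chosen for their level in control A, the gaps are not ranked.

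The 8 other genes whose log2(CPM + 1) profile over the 6 libraries was most like the mean of the 10 were slgA, CG32107, Cyp49a1, the noncoding RNA gene Hsromega, Ras64B, Pura, subdued and Ggamma30A, with Pearson's r of 0.995 to 0.999 among 3846 genes that reached 20 CPM in 1 library. The 6 points share the depth and the scaling of their library, and control A lies far from the other 5. slgA, a proline dehydrogenase gene, measured 1.80, 1.37 and 3.86 CPM in 9G8-RNAi A, B and D, against 81.0, 0.547 and 0.439 CPM in control A, B and D. Cyp49a1, a cytochrome P450 gene, measured 1.67, 1.44 and 2.81 CPM in 9G8-RNAi A, B and D, against 75.5, 0.442 and 0.345 CPM in control A, B and D. Both were thus high in control A and, among the other 5, higher in the 3 9G8-RNAi libraries than in control B and D, the profile they were picked for. Their ratios of control A to the next library, 21.0 and 26.9, were the largest of the 8. The rest had ratios from 2.92 (Hsromega), 3.23 (Ras64B) and 3.43 (CG32107) up to 20.4 (Pura).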

How the data were processed

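PolyA-selected RNA was sequenced in 6 libraries. The authors deposited raw counts of reads for each gene as whole numbers, with a summed exon length, per the file headers. The submitters' processing notes name Trimmomatic (0.36), STAR (2.5.2b), featureCounts in Subread (1.5.2) and the build BDGP6; for settings and strand mode: not given in the sources used here. Groups came from the titles. Symbols came from Ensembl release 115, where 17137 of 17411 gene IDs were found; the 10 genes have the same ends there as in the deposited files. The members and gene lists were chosen with earlier results of these data known.

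Counts were fitted with edgeR 4.0.16 in R 4.3.3 (filterByExpr, TMM factors from 0.635 in control D to 1.68 in control A, robust quasi-likelihood test, Benjamini-Hochberg adjustment over all tested genes, threshold 0.05). The SE is the absolute log2 fold change over the square root of F. The script was tested on simulated data. CPM, TPM and ratios were computed in Python 3.11.15. Intervals and the floor of 3 counts (0.0451 to 0.114 CPM) cover counting error only. No pair of libraries was close enough to be a repeat (lowest chi-square per df 266.5). Genes named besides the 10 are x16, up to 4 of highest mean CPM in each list, any past the threshold, and the 8 of most similar profile; those chosen after their values were seen are said to be so. Alternatives were RLE, upper-quartile or no factors, other filters, DESeq2 1.42.0, library sizes lacking the 20 top genes or the muscle list, the letter as block, and each library left out.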

Additional observations from a re-analysis of the deposited data

How the results depend on the processing

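Of the 10 genes, 0 passed under every alternative but 1: leaving out control A and using total counts only, a pair of choices made after seeing the data, under which 1 (CG6409) passed. In DESeq2 only 4 of the 10 had an adjusted p, so the others could not pass there. At an unadjusted edgeR p under 0.05 there were 0 of the 8 tested members with all libraries and 5 of 8 without control A. It was 5 of 9 without control B and 1 of 9 without control D. Over all tested genes it was 421 of 9285, 633 of 9564, 460 of 9307 and 1018 of 9933 in the same order. The count over all genes was 11, with 17 for total counts only, 50 with no low-count filter, 99 in DESeq2, 55 with library sizes without the 20 genes with most counts, 0 to 11 without single libraries and 29 without control A with total counts only. Over all genes 421 had an unadjusted p under 0.05, and 217 with the block. Samples of the same letter did not deviate together (r of -0.03, -0.38 and -0.47 for A, B and D); with the replicate letter as a replicate block 0 genes passed, and the log2 fold change was 0.78 for Irk2, 0.44 for Lgr1 and 1.47 for CG6409, against -1.80, -3.77 and -3.44 without it; the cause was not tested.

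Direction hung on control A for 5 genes. Without single libraries the log2 fold change ran from -3.98 to 1.65 for byn, -5.23 to 1.46 for NKCC, -2.30 to 1.85 for Irk2, -4.28 to 1.97 for Lgr1 and -3.95 to 2.67 for CG6409, each highest value being the one without control A, and without control A and with total counts only it was 1.83, 1.77, 2.30, 2.32 and 3.20. That of drm ran from -0.024 (without 9G8-RNAi D) to 0.45 and was -0.038 with total counts only; that of x16 ran from -0.86 to 0.18 (without control D). Bowl stayed above 0 and hh below 0 in all alternatives. The log2 ratio of control A to the next library turned to -0.25 (drm), -0.48 (bowl) and -0.14 (hh) with TMM scaling and to -0.11 (drm) and -0.026 (bowl) without the 20 genes with most counts. At least 2-fold excess in control A held for the same 7 genes under all 5 scalings. Depth limits otp and FoxL1 outside control A.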

Other observations

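Further genes of the lists, chosen after their values were seen, also stood high in control A. Nha2, a sodium and proton antiporter, measured 342.5 CPM in control A and 6.42 to 15.3 CPM in the other 5 libraries, and Best2, a bestrophin chloride channel gene, 43.1 CPM and 0.407 to 2.19 CPM. The Notch ligand gene Ser measured 11.6 CPM in control A and 0.0340 to 0.442 CPM in the others. In the Hedgehog pathway ci, the transcription factor at its end, measured 11.5 CPM in control A and 0.595 to 2.16 CPM in the others, ptc, the receptor, 10.1 CPM and 1.51 to 4.18 CPM, and dlp, a glypican, 23.8 CPM and 1.91 to 5.24 CPM. In the muscle list Mlp60A, named above for its level, went the other way, with 327.5 CPM in control A and 351.8 to 871.6 CPM in the others. With TMM scaling the ratio of control A to the next library stayed above 1 for Nha2 (12.9), Best2 (9.94), Ser (17.4), ci (2.77), ptc (1.69) and dlp (3.00). Other genes of the same lists had ratios below 1 on that scale, such as slo (0.0933), smo (0.967) and boi (0.434). At least 2-fold higher were 3 of 28 salt and water transport genes, 3 of 17 other hindgut development genes and 2 of 17 Hedgehog pathway genes. Over all tested genes it was 6.23%.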
